A study of Mus musculus with 4 samples.

Results

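The ATP-binding cassette (ABC) efflux transporters of the hepatocyte were compared between Nrg4 knockout (KO) and wild-type (WT) livers. The set held 10 genes of the 22180 genes that a probe set measured under 1 symbol, and each of the 10 had 1 such probe set. They were chosen by name, 7 as pumps of the canalicular membrane that faces bile (Abcb11, Abcb4, Abcb1a, Abcc2, Abcg2, Abcg5, Abcg8) and 3 as pumps of the basolateral membrane that faces blood (Abcc3, Abcc4, Abcc6). Samples were liver RNA of male mice, either Nrg4 knockout or wild type, with 2 independent RNA pools per genotype and 1 Affymetrix Mouse Gene ST 2.1 array per pool. All animals, WT included, had received a diet that causes non-alcoholic steatohepatitis (NASH; Research Diets D09100301) for 20 weeks from 3 months of age, and were fed at harvest. No group on a normal diet was analysed here. The sources used here give neither the number of animals in a pool nor how the allele was made.

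ABC transporters use the energy of ATP hydrolysis to move substrates out of the cell against a gradient. At the canalicular membrane they secrete bile salts, phospholipid, cholesterol and conjugates, which together form bile, and each of these lipids is handled by its own pump. Basolateral pumps return conjugates and bile salts to blood, a route known to be used more in cholestasis. Nuclear receptors for bile salts (FXR, gene Nr1h4), oxysterols (LXR, Nr1h3) and foreign compounds (PXR, Nr1i2, and CAR, Nr1i3) are known to control many of these genes.

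Nrg4, a ligand of ErbB receptors, was at a log2 level of 0.93 in both KO pools, against 2.54 and 2.30 in the WT pools. In KO pool 1 that same value stood at 301 probe sets, so it is a tied low value and gives no fold. Over 12458 tested genes, which are no replicates, r was 0.975 between the KO pools, 0.979 between the WT pools and 0.966 to 0.973 across genotypes. The 7 measured hepatocyte markers, Hnf4a, Alb, Ttr and Apoa1 among them, had mean log2 levels of 9.08 and 9.11 in the KO pools and of 9.15 and 9.13 in the WT pools. Levels are the authors' deposited log2 values. Differences are KO minus WT on that scale, and a gene was called at a Benjamini-Hochberg adjusted p under 0.05 over all tested genes (limma). A probe set's level cannot be set against that of another gene, so only differences between pools are compared.

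Among the 10 efflux transporters, the cholesterol pumps Abcg5 and Abcg8 and the multidrug pump Abcg2 were lower in KO livers, while Abcb11, Abcc2, Abcb4 and Abcb1a were at higher levels. In these 7 canalicular genes both KO pools lay on the same side of both WT pools, 4 above and 3 below. In the 3 basolateral genes the pools overlapped. Pools of the 2 genotypes did not overlap in 41.7% of all tested genes, 22.2% with KO higher and 19.5% with KO lower, against 7 of 10 here. Pools were also separate in 11 of 16 other ABC genes of the plasma membrane and in 10 of 13 transcriptional regulators, so such a count is not particular to the members. No member passed the adjusted threshold, which 0.0482% of tested genes did. At an unadjusted p under 0.05 there were 2 members, Abcg5 and Abcg8, both lower in KO, where the share of all tested genes was 10.3% in either direction, 3.92% lower and 6.37% higher. The median difference over the 10 members was 0.05, and that over all tested genes was 0.01. With 1 pool left out, Abcg5 no longer reached that unadjusted level, and Abcg8 did so without KO pool 2 but not without any other pool. The median of the absolute differences was 0.26 for the members and 0.22 for all tested genes.

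**Figure D1:**
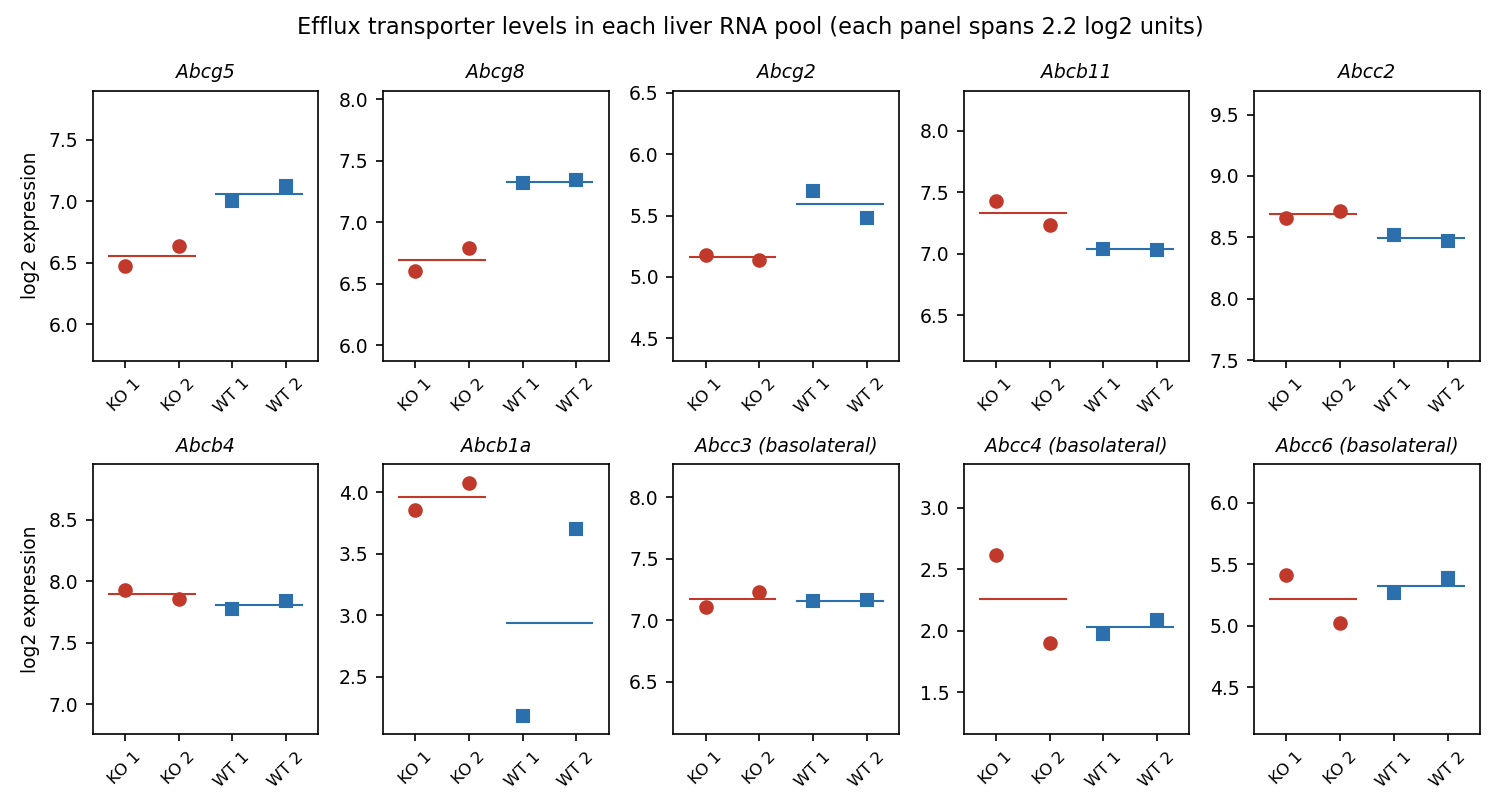
Log2 expression of the 10 efflux transporters (vertical axes, each spanning the same range) in each RNA pool, KO pools as red circles and WT pools as blue squares, with lines at the group means (n = 2 pools each). Abcg5, Abcg8 and Abcg2 are lower in both KO pools, Abcb1a has 1 low WT pool, and the pools of Abcc3, Abcc4 and Abcc6 overlap.

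Abcg5 and Abcg8 encode the sterolins, which pair to form the pump that secretes cholesterol and plant sterols into bile. Abcg8 was at log2 levels of 6.60 and 6.79 in the KO pools, against 7.32 and 7.34 in the WT pools. Its partner Abcg5 was at 6.48 and 6.63 in the KO pools, against 6.999 and 7.12 in the WT pools. For both genes every KO value lay below every WT value, with gaps of 0.53 for Abcg8 and 0.37 for Abcg5 between the nearest pools. Abcg8 averaged 6.70 ± 0.13 in KO and 7.33 ± 0.02 in WT (SD, n = 2 each), a difference of -0.63 ± 0.19 (SE). That is 1.55-fold lower in KO, with a 95% interval of 1.11 to 2.17 (limma, unadjusted p = 0.0188, adjusted p = 0.391). Abcg5 averaged 6.55 ± 0.11 in KO and 7.06 ± 0.09 in WT (SD, n = 2 each), a difference of -0.51 ± 0.20 (SE). It was 1.42-fold lower in KO, with a 95% interval of 1.02 to 1.99 (limma, unadjusted p = 0.0430, adjusted p = 0.474).

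The differences of the pair were close in size. The log2 ratio of Abcg5 to Abcg8 within a pool was -0.13 and -0.16 in the KO pools, against -0.32 and -0.22 in the WT pools, so it shifted by 0.13. KO pool 1 was the lower of the KO pools for both genes. A difference as large as that of Abcg8 or larger, in either direction, was found in 10.02% of all tested genes, and for Abcg5 the share was 16.2%. In a limma fit whose prior variance depends on signal intensity, Abcg8 was called (adjusted p = 0.0437), as were 1.09% of tested genes, with 0.698% called lower. Abcg5 was not called by that fit (adjusted p = 0.115). At an unadjusted p under 0.05 the same fit gave 3 members lower (Abcg5, Abcg8, Abcg2) and 3 higher (Abcb11, Abcc2, Abcb1a), where 5.8% of tested genes were lower, 6.38% higher and 12.2% either. Leaving out any 1 pool left Abcg8 between -0.73 and -0.54 and Abcg5 between -0.59 and -0.43. Because whole liver was measured, fewer hepatocytes and less RNA per hepatocyte cannot be told apart. The 7 hepatocyte markers had a median difference of -0.004 in the same pools, with 3 above 0 and 4 below. Their range was -0.28 (Hnf4a) to 0.17 (Ttr). Hnf4a was at 7.23 and 7.13 in the KO pools, against 7.40 and 7.52 in the WT pools (limma, adjusted p = 0.678).

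The sequence around neighbouring starts of the sterolin genes on chromosome 17 is shown because both genes were lower. In RefSeq's table for GRCm38.p6 Abcg5 starts at 84683011 on the minus strand, and 1 of the 2 annotated starts of Abcg8 is at 84683121 on the plus strand, 110 bases away. The other Abcg8 start, at 84676302, lies inside the annotated span of Abcg5, so the spans of the genes overlap, and which start was used in these livers was not tested. The windows of the neighbouring starts, 250 bases before to 50 after each, share 209 bases. Capitals in this Abcg8 window mark matches to the GATA motif AGATAA and to the TATA box motif TATAAA, on either strand. The Abcg5 start is base 141 of the window and this Abcg8 start is base 251.
Abcg8 window, chr17:84682871-84683170, plus strand: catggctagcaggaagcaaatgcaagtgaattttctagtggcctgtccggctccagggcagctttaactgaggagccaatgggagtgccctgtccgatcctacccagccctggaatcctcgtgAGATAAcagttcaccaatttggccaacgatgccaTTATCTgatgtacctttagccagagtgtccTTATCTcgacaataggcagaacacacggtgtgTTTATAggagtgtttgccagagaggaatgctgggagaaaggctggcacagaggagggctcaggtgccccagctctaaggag

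The window holds 3 matches to the GATA motif, of which 2 lie between the starts. All 3 also lie in the Abcg5 window, and the window of the other Abcg8 start has no match to either motif. At least 1 match was found in 11.2% of the 32851 promoter windows of the table, and 3 or more in 0.107%. The TATA box match begins at position -31 from the Abcg8 start, on the minus strand, and 13.6% of all windows held one. No exact match to an inverted repeat GGTCANTGACC or a direct repeat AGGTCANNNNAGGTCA, arrangements that FXR and LXR are known to bind, was found in the windows of the members. Of all windows 0.0396% and 0.0152% held them. Inexact matches, which such sites often are, were not searched. A match or its absence in this window describes the letters only.

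**Figure D2:**
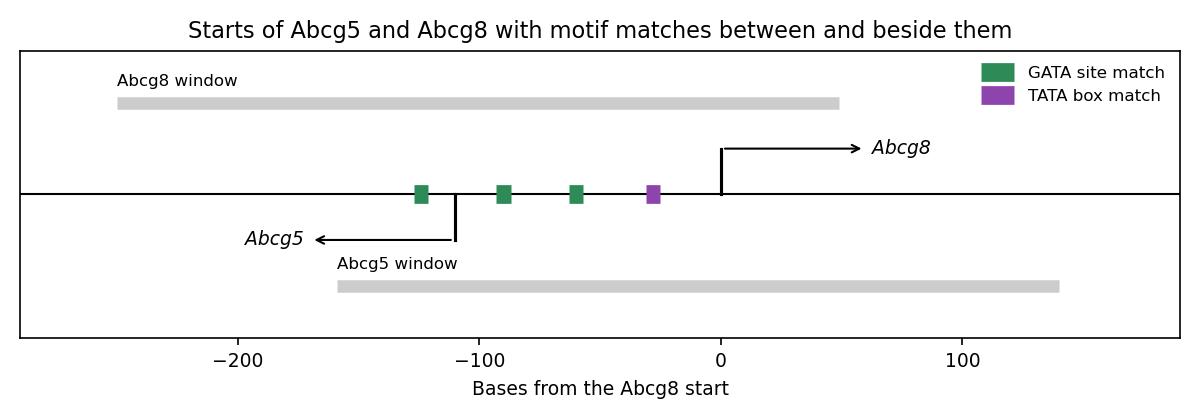
Map of the Abcg5 start and the neighbouring of the 2 Abcg8 starts (bent arrows) drawn to scale, with the distance in bases from that Abcg8 start on the horizontal axis. Grey bars are the promoter windows, green blocks the 3 GATA motif matches and the purple block the TATA box match. The starts are 110 bases apart, and 2 of the GATA matches lie between them.

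Abcg2, the breast cancer resistance protein, exports urate, porphyrins, sulfated conjugates and many drugs. It was at log2 levels of 5.18 and 5.14 in the KO pools, against 5.70 and 5.48 in the WT pools. The KO pools differed from each other by 0.04 and the WT pools by 0.21, and the nearest pools of the 2 genotypes were 0.30 apart. The difference was -0.43 ± 0.20 (SE), which is 1.35-fold lower in KO, and its 95% interval of -0.92 to 0.06 includes 0 (limma, unadjusted p = 0.0746, adjusted p = 0.545). Without WT pool 1 it was -0.32 and without WT pool 2 it was -0.54. Of the other ABCG genes, named here after their values were seen, Abcg1 differed by 0.70 ± 0.38 and Abcg3 by 0.28 ± 0.25 (SE; limma, adjusted p = 0.597 and 0.759), and their pools overlapped.

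**Figure D3:**
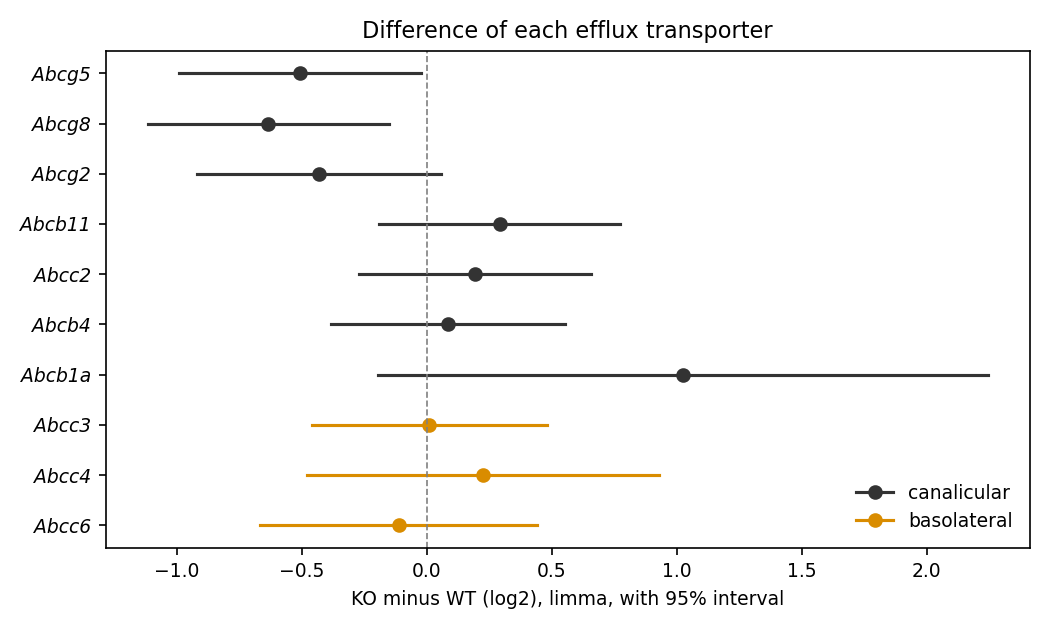
Difference in log2 expression (KO minus WT, horizontal axis) for each efflux transporter, with the 95% interval from limma as a bar (n = 2 pools per genotype). Intervals of Abcg5 and Abcg8 lie below 0, and those of the other 8 genes include it.

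Abcb11 is the bile salt export pump, which drives bile flow, and it is a known target of FXR. It was at log2 levels of 7.42 and 7.23 in the KO pools, against 7.04 and 7.03 in the WT pools. Both KO pools were above both WT pools, although the KO pools were further apart (0.19) than the WT pools (0.01). The difference was 0.29 ± 0.19 (SE), a 1.22-fold higher level in KO with a 95% interval of 0.876 to 1.71 (limma, unadjusted p = 0.187, adjusted p = 0.668). It lay between 0.20 without KO pool 1 and 0.39 without KO pool 2. Nr1h4 itself was at 5.62 and 6.13 in the KO pools and at 6.45 and 5.99 in the WT pools, so its pools overlapped. Nr0b2, the FXR target known as SHP, was at 4.09 and 4.23 in the KO pools and at 4.04 and 3.98 in the WT pools, a difference of 0.15 ± 0.19 (SE; limma, adjusted p = 0.833).

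The Abcb11 window is shown for comparison, since this pump differed from the sterolins in the opposite direction. Capitals mark its match to AGGTCA, the core motif of nuclear receptor sites, which begins at position -56 from the annotated start and lies on the opposite strand. With the bases ggccat before it, the match resembles the inverted repeat GGTCANTGACC but is not exact, so it was not counted as that repeat. Of the 12 windows that the table holds for 8 of the members, 4 had this motif, and 16.3% of all windows did. Those 4 belong to Abcb11, Abcc2 and Abcg2, the last with 2 of its 3 windows.
Abcb11 window, chr2:69342567-69342866, minus strand: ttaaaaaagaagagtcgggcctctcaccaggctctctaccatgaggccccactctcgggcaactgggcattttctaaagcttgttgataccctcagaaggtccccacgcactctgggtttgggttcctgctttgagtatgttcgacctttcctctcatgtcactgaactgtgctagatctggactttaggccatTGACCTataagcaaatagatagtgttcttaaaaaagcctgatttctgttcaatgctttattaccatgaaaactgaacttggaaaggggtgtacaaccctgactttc

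Abcc2 (MRP2) secretes bilirubin glucuronides and glutathione conjugates into bile. Its log2 levels were 8.66 and 8.72 in the KO pools, against 8.52 and 8.47 in the WT pools. Abcb4 (MDR2) moves phosphatidylcholine to the outer leaflet of the canalicular membrane, from which bile salts extract it. Its log2 levels were 7.93 and 7.86 in the KO pools, against 7.78 and 7.84 in the WT pools. These pools did not overlap either, but the gap between the nearest pools was 0.14 for Abcc2 and 0.01 for Abcb4. The Abcc2 difference was 0.19 ± 0.19 (SE), with a 95% interval of -0.27 to 0.66 (limma, adjusted p = 0.775). For Abcb4 it was 0.09 ± 0.19 (SE), with a 95% interval of -0.38 to 0.55 (limma, adjusted p = 0.910). A difference at least as large as that of Abcb4 was present in 78.8% of tested genes.

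Abcb1a encodes P-glycoprotein, a pump for hydrophobic drugs that endothelial cells also express. It had the largest fitted difference of the 10 members and also the largest spread. Its log2 levels were 3.85 and 4.08 in the KO pools, against 2.18 and 3.70 in the WT pools. WT pool 1 stood 1.52 below WT pool 2, while the nearest pools of the 2 genotypes were 0.15 apart. The difference was 1.02 ± 0.49 (SE), with a 95% interval of -0.20 to 2.24 (limma, unadjusted p = 0.0850, adjusted p = 0.564). It was 0.27 without WT pool 1 and 1.78 without WT pool 2, so its size rests on WT pool 1. Of the 8 endothelial markers 5 had a difference above 0 and 3 below it, with a range of -0.13 to 0.33 and a median of 0.06, and the part of endothelial RNA in the Abcb1a value was not tested.

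Abcb1b, a close copy of Abcb1a that lies next to it on chromosome 5 and is no member of the set, differed in the other direction. Its log2 levels were 0.73 and 0.72 in the KO pools, against 1.27 and 1.25 in the WT pools. The difference was -0.54 ± 0.19 (SE; limma, unadjusted p = 0.0300, adjusted p = 0.430). Its KO mean stood 0.18 above the median of all probe sets, near the dim end of the scale, where differences may be compressed. The copies share sequence, so each probe set may measure some RNA of the other.

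**Figure D4:**
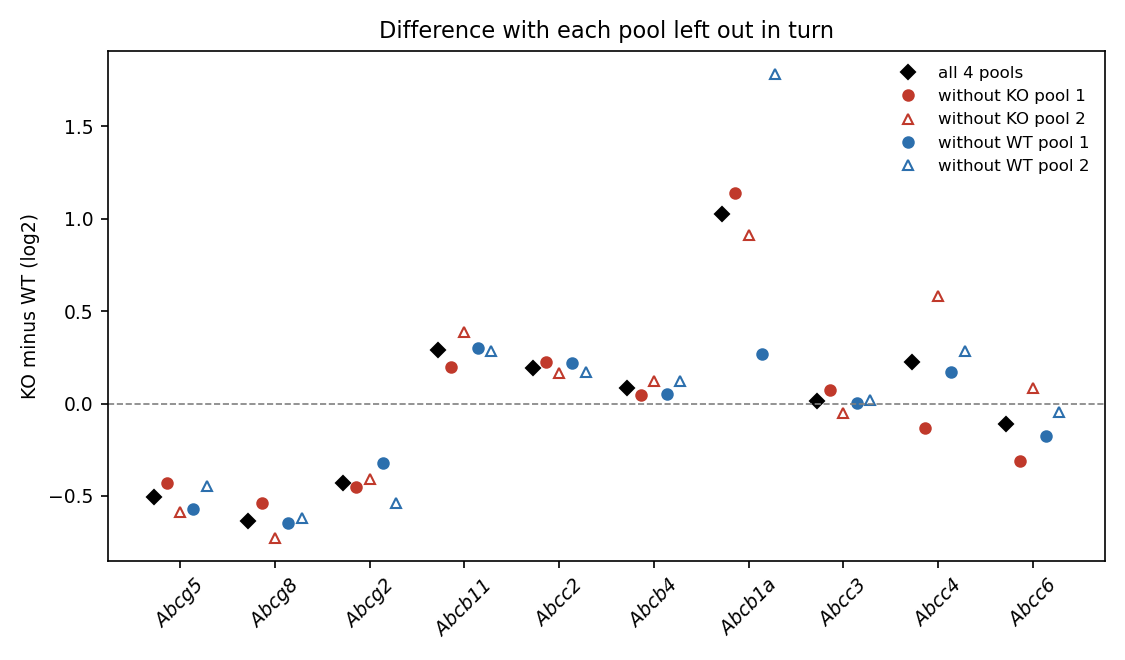
Difference in log2 expression (KO minus WT, vertical axis) for each efflux transporter with all 4 pools (black diamonds) and with 1 pool left out in turn (red, a KO pool; blue, a WT pool). Abcg5, Abcg8 and Abcg2 stay below 0 in every case, Abcb1a falls to 0.27 without WT pool 1, and Abcc3, Abcc4 and Abcc6 change sign when a KO pool is left out.

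On the basolateral side, none of the 3 pumps separated the genotypes. Abcc3 (MRP3), which returns glucuronides and bile salts to blood, was at log2 levels of 7.11 and 7.23 in the KO pools, against 7.15 and 7.17 in the WT pools. Both WT values lay between the KO values. The difference was 0.01 ± 0.19 (SE), and its 95% interval corresponds to KO levels from 0.727 to 1.40 times WT (limma, unadjusted p = 0.955, adjusted p = 0.988). A change larger than these bounds is outside the interval, and smaller ones are not excluded by it.

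Abcc4 (MRP4), an exporter of bile salts with glutathione, cyclic nucleotides and prostanoids, was at log2 levels of 2.61 and 1.90 in the KO pools, against 1.97 and 2.09 in the WT pools. The KO pools lay on either side of the WT pools, 0.71 apart. Its difference was 0.23 ± 0.28 (SE; limma, adjusted p = 0.832), which was -0.13 without KO pool 1 and 0.58 without KO pool 2. Abcc6, whose activity in liver releases ATP to blood and thereby supports the mineralization inhibitor pyrophosphate, was at log2 levels of 5.41 and 5.02 in the KO pools, against 5.26 and 5.39 in the WT pools. Its difference was -0.11 ± 0.22 (SE; limma, adjusted p = 0.902), which was -0.31 without KO pool 1 and 0.09 without KO pool 2. For both genes the direction depended on which KO pool was used.

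Ratios within a pool set the differences of the canalicular pumps side by side. The log2 ratio of Abcg8 to Abcb11 was -0.82 and -0.44 in the KO pools, against 0.28 and 0.31 in the WT pools, a shift of -0.93. The ratio of Abcg2 to Abcb11 was -2.24 and -2.09 in the KO pools, against -1.35 and -1.55 in the WT pools, a shift of -0.72. By contrast the phospholipid pump Abcb4 and the bile salt pump Abcb11 shifted against each other by -0.21, with ratios of 0.51 and 0.63 in the KO pools and of 0.73 and 0.81 in the WT pools. Only the shift of a ratio can be read, since its level depends on the probes. The pairs were chosen with their values known, and 2 pools against 2 cannot give an exact permutation p below 0.333, so the ratios are a description with no test.

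Other ABC genes were taken from a list of the family. Of 28 further genes of the plasma membrane 16 were tested, with 1 higher and 2 lower in KO at an unadjusted p under 0.05, a median difference of 0.15 and a range of -0.93 to 0.70. Among all tested genes 6.37% were higher and 3.92% lower at that level, which is also the background for the lists that follow. The lower ones were Abca8a (-0.93 ± 0.20 SE; limma, adjusted p = 0.290), of the lipid-transporting ABCA subfamily, and Abcb1b. The higher one was Abcc5 (MRP5), an exporter of cyclic nucleotides, at 0.61 ± 0.22 (SE; limma, adjusted p = 0.439). Abca8a was called by the limma fit with an intensity-dependent variance (adjusted p = 0.0427). Of the 13 measured ABC proteins of organelles and the cytosol, 1 was lower and none was higher at that unadjusted p, with a median of -0.15. That gene was Abcb10, of the mitochondrial inner membrane, at -0.94 ± 0.21 (SE; limma, adjusted p = 0.297). Abca1, the cholesterol exporter that loads high-density lipoprotein at the basolateral membrane, differed by 0.21 ± 0.20 (SE; limma, adjusted p = 0.779), with 6.83 and 6.68 in the KO pools against 6.42 and 6.66 in the WT pools. It was named here after its value was seen.

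Carriers that work beside the ABC pumps gave 1 higher and 1 lower of 7 tested at an unadjusted p under 0.05. Aqp8, a water channel of the canalicular membrane, differed by 0.80 ± 0.27 (SE; limma, adjusted p = 0.423). Tmem30a, the subunit that lipid flippases such as Atp8b1 need to leave the endoplasmic reticulum, was at 6.53 and 6.47 in the KO pools, against 7.03 and 7.01 in the WT pools, a difference of -0.52 ± 0.19 (SE; limma, adjusted p = 0.436). Atp8b1 itself differed by 0.09 ± 0.26 (SE), and Slc47a1, an exporter of organic cations, by -0.39 ± 0.24 (SE). Among 12 scaffold and trafficking genes of the canalicular pole, Ezr was higher at an unadjusted p under 0.05 (0.82 ± 0.23 SE; limma, adjusted p = 0.364) and none was lower. Ezr links membrane proteins to actin and is also an epithelial protein of bile ducts. Rdx, which anchors Abcc2 at the canaliculus, differed by -0.08 ± 0.19 (SE).

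Of 13 tested transcriptional regulators, 9 had a difference below 0 and 4 above it, with a median of -0.18, and 1 was lower at an unadjusted p under 0.05. That one was Nr1i3, the receptor CAR, at 6.87 and 6.71 in the KO pools, against 7.43 and 7.47 in the WT pools. Its difference was -0.66 ± 0.19 (SE; limma, adjusted p = 0.372, or 0.0330 with an intensity-dependent variance). Nr1h3 (LXR alpha), a known activator of Abcg5 and Abcg8, was at 4.73 and 4.84 in the KO pools and at 4.77 and 4.80 in the WT pools, a difference of 0.002 ± 0.19 (SE). Hnf4a and Nr5a2 differed by -0.28 ± 0.19 and -0.32 ± 0.19 (SE; limma, adjusted p = 0.678 and 0.632). KO pools lay below WT pools for both, as for 7 of the 13 regulators and 19.5% of tested genes. Whether any regulator bears on the sterolin differences was not tested. Nfe2l2 (NRF2), a known activator of Abcc2, Abcc3 and Abcc4, differed by 0.30 ± 0.19 (SE; limma, adjusted p = 0.654). Ppara and Foxo3 differed by -0.39 ± 0.20 and -0.46 ± 0.22 (SE; limma, adjusted p = 0.585 and 0.554).

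**Figure D5:**
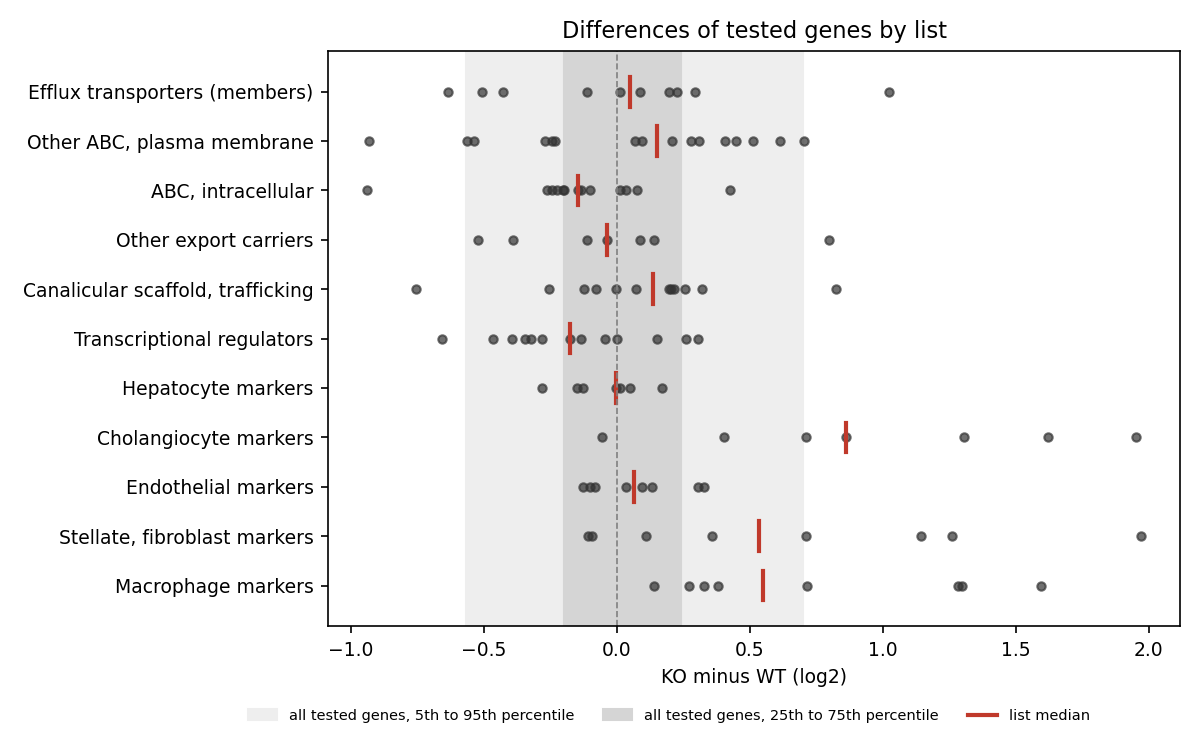
Differences in log2 expression (KO minus WT, horizontal axis) of the tested genes of each list, 1 point per gene, with the list median as a red line. Grey bands give the 5th to 95th and the 25th to 75th percentiles of all tested genes. Efflux transporters have a median of 0.05. Medians are 0.86 for cholangiocyte markers, 0.54 for the joint list of stellate and fibroblast markers, and 0.55 for macrophage markers.

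Markers of other liver cells are given for the same pools, and none passed the adjusted threshold (limma). The limma fit with an intensity-dependent variance called the fibroblast marker Dpt and the cholangiocyte markers Cdh1 and Mmp7 higher (adjusted p = 0.00369, 0.0206 and 0.0457). It called 1.09% of all tested genes and no marker lower. The 7 tested of 9 cholangiocyte markers had mean log2 levels of 2.40 and 2.87 in the KO pools and of 1.79 and 1.53 in the WT pools. Of these, 6 had a difference above 0, and Cdh1, Cd24a and Mmp7 had an unadjusted p under 0.05 (limma, adjusted p = 0.234, 0.247 and 0.247). The defining keratin Krt19, the 1 with a difference below 0, was near the dim end of the scale in all pools. It was at 0.64 and 0.81 in the KO pools and at 0.79 and 0.78 in the WT pools. Krt7, also dim, was at 0.93 and 0.88 in the KO pools and at 0.50 in both WT pools. Its difference was 0.40 ± 0.19 (SE; limma, adjusted p = 0.551), and its value in KO pool 1 is the tied value given for Nrg4. The 8 macrophage markers averaged 4.25 and 4.38 in the KO pools and 3.42 and 3.70 in the WT pools. All 8 had a difference above 0, as had 6429 of the 12458 tested genes. At an unadjusted p under 0.05, 4 were higher, where 6.37% of tested genes were. Trem2, Ms4a7 and Cx3cr1 had the smallest p (limma, adjusted p = 0.297, 0.297 and 0.299). The 8 stellate and fibroblast markers averaged 4.63 and 4.74 in the KO pools and 4.08 and 3.94 in the WT pools, 6 of them above 0. At an unadjusted p under 0.05, 4 were higher and none lower. Dpt, Lum and Pdgfrb had the smallest p (limma, adjusted p = 0.164, 0.226 and 0.240). The pools of the other markers Lrat, Des and Reln overlapped, with differences of 0.11 ± 0.19, -0.09 ± 0.25 and -0.11 ± 0.22 (SE), so the list did not move as a whole. Means of the 8 endothelial markers, at 4.25 and 4.46 in the KO pools and at 4.35 and 4.22 in the WT pools, overlapped between genotypes. Bile duct cells are known to express Abcc3 and Abcc4 too, and the part of non-hepatocyte RNA in the values of the pumps was not tested.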

How the data were processed

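Liver RNA of 4 pools was hybridised to arrays, 400 ng of total RNA each per the labels' protocols. The deposited table gives log2 expression of 41345 probe sets, from -1.12 to 11.9. The authors used oligo, RMA and limma per the submitters' processing notes, with versions, build and order of steps not given in the sources used here. Its zero point is unknown, values were not centred per gene, and array medians were 0.64 and 0.53 in KO and 0.52 and 0.56 in WT pools. No scan dates were used, so no batch could be tested, and the number of arrays limits the precision.

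Platform annotation paired 23521 probe sets with 1 symbol, 1814 with several and 16010 with none. The brightest probe set per gene was kept, and a gene was tested if its mean reached the median probe-set mean of the table (0.54). The KO and WT pools were compared with limma 3.58.1 (R 4.3.3; lmFit and eBayes without covariates; residual degrees of freedom 2, prior 3.67). All 10 members passed the filter. P-values weigh a difference against the gene's spread between pools, combined with a prior variance estimated from all tested genes. They do not measure the spread between animals. The procedure was also run on simulated data, whose outcome is not given here, and 12 alternatives were run. Pool numbers are shared between genotypes, but no label says that they mark a batch, so they were no block.

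Members, lists and motifs were chosen with earlier results of these data known. Named genes are the members, Nrg4, genes of each list among its 3 smallest p-values, and the 3 genes nearest in pattern to the member with the smallest p. Atp8b1, Rdx, Nr1h4, Nr0b2, Nr1h3, Nr5a2, Nfe2l2, Abca1, Apoa1, Krt19, Krt7, Lrat, Des and Reln were added for their known roles after values were seen. Promoter windows are RefSeq's.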

Additional observations from a re-analysis of the deposited data

How the results depend on the processing

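Abcg5, Abcg8, Abcg2, Abcb11, Abcc2, Abcb4 and Abcb1a kept their direction in all 12 alternatives, and no member passed the adjusted threshold except Abcg8 with an intensity-dependent variance (-0.63, limma, adjusted p = 0.0437; adjusted p between 0.0437 and 0.722 over the alternatives). That model called 136 genes against 6 and gave 3 higher members (Abcb11, Abcb1a, Abcc2) and 3 lower ones (Abcg5, Abcg8, Abcg2) at an unadjusted p under 0.05, where 6.38% and 5.8% of tested genes lay. Quantile normalization left 1 lower member, Abcg8. Abcc3 turned to -0.036 with arrays centred on their medians and to -0.049 without KO pool 2 (0.072 without KO pool 1), Abcc4 to -0.132 without KO pool 1 (0.582 without KO pool 2) and Abcc6 to 0.086 without KO pool 2 (-0.309 without KO pool 1). Without any 1 pool, limma called 0 genes, with 906 to 1314 at an unadjusted p under 0.05, and between 0 and 1 members were higher and between 0 and 1 lower at that level. The fit with 1 pool fewer assumes that a lone pool varies like the other genotype's. Pool numbers as a replicate block gave 2 called genes, 1 higher member (Abcb1a) and 1 lower member (Abcg8), and deviations of same-numbered pools correlated at -0.04. That correlation cannot show whether same-numbered pools share a batch, which no label gives. Causes of these shifts were not tested.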

Other observations

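The tested genes whose 4 pool values, each centred on the gene's own mean, lay nearest to those of Abcg8 were Hao1, Psmg2 and Wdr37, at distances of 0.048, 0.050 and 0.053 on the log2 scale. Hao1, a peroxisomal glycolate oxidase of hepatocytes, was at 6.44 and 6.69 in the KO pools, against 7.19 and 7.19 in the WT pools. Psmg2, an assembly chaperone of the proteasome, was at 3.34 and 3.59 in the KO pools, against 4.11 in both WT pools. Abcg5 ranked 77 by this distance and Abcg2 ranked 525, and the other members stood further off. With 4 values per gene this likeness is a description and not a test.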
